A study of Mus musculus with 2 samples.

Results

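The latest condensing spermatids captured in these testes, called Spem1-stage spermatids here, were 865 of 9669 germ cell barcodes that passed a filter, and of 12768 barcodes in all. They were chosen by the measured levels of 3 genes. Spem1 encodes a protein needed to strip the cytoplasm from the spermatid head and neck, Car2 encodes a carbonic anhydrase, and Tssk6 encodes a testis-specific kinase required for normal sperm chromatin. A barcode was a member when the mean z-score of these 3 genes, over ln(1 + UMIs per 10000), exceeded that of 9 other sets of 3 genes that mark earlier germ cells. A UMI (unique molecular identifier) counts 1 captured RNA molecule. Barcodes with UMIs of 2 or more of 10 somatic and early germ cell genes were set aside first. Because expression selected the cells, the levels of these genes and all differences between stages are descriptions and were not tested.

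During the last steps of spermiogenesis the spermatid nucleus is compacted, first by transition proteins and then by protamines, and transcription stops. Messages made earlier are held in ribonucleoprotein particles and translated days later. The flagellum gains its fibrous sheath, outer dense fibres and mitochondrial sheath, and surplus cytoplasm is shed as a residual body.

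Single-cell RNA was profiled with the GEXSCOPE kit in 1 WT and 1 KO library from testes of C57BL/6 mice aged 12 weeks. The KO mice were Alkbh5-/-, lacking throughout the body the demethylase that removes N6-methyladenosine from RNA. The sources used here differ on whether each library held the cells of 1 mouse or of several. With 1 library per genotype, library, mouse and genotype cannot be told apart, every interval below covers counting error only, and no p-value is given.

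The WT library held 5756 barcodes and 80283221 UMIs, and the KO library 7012 barcodes and 82056760 UMIs. The median WT member had 7824 UMIs from 1340 genes and the median KO member 6874 from 1428, the lowest medians of the 10 stages for both measures in each library. Barcode sequences shared by both libraries numbered 45, of which 4 were WT members and 3 KO members. Alkbh5 had 607 UMIs in the WT library and 5 in the KO library, and members held 3 and 0 of them, so it could not check the genotype in these cells. UMIs of genes that mark other cell types were counted with lists of markers. The 10 Leydig markers summed to 10.3 CPM (counts per 1000000 UMIs) in WT members and 380.4 in KO members, the 10 Sertoli markers to 7.59 and 79.4, and the 10 early spermatocyte markers to 55.3 and 164.1. Of the 10 lymphocyte markers, summing to 151.9 and 369.9 CPM, Cd3d held most UMIs, and the 10 macrophage markers summed to 167 and 143 and the 9 red blood cell markers to 229.8 and 162.4, both lower in KO. The median member had no UMI of the Leydig, Sertoli and early spermatocyte lists in either library. It did carry UMIs of the lymphocyte (1.23 in WT and 3.10 in KO), red blood cell (1.82 and 1.44) and macrophage lists (1.30 and 0.53) per 10000. The lymphocyte list in members was at 263% of its level in the rest of the library in WT and 452% in KO. The red blood cell list was at 108% and 111%, the macrophage list at 185% and 38.5%, and the Leydig list at 1.57% and 5.02%. Whether these UMIs came from other cells was not tested. At most, 1 KO barcode reached 297.1 Leydig UMIs per 10000. All 10 markers of the Leydig and Sertoli lists had a UMI in KO members, whereas Lhcgr, Sox9 and Wt1 were at 0 in WT members.

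The selecting genes were detected in nearly all members, which the rule fixes and which is no check of the label. Spem1 had a UMI in 98.2% of WT and 100% of KO members, Car2 in 99.7% and 100%, and Tssk6 in 99.8% and 99.1%. The median per barcode was 19.8 Spem1 UMIs per 10000 in WT, with a range of 0 to 51.9, and 17.1 in KO, with a range of 2.32 to 52.0. Prm1 and Prm2, protamine genes that the rule for this stage did not use, had UMIs in every member, which is no check of the label either. In Piwil1-stage spermatocytes Prm1 made up 0.33% of UMIs in WT and 0.12% in KO, and Prm2 0.12% and 0.052%. Whether those UMIs came from other cells was not tested. The median score of the Spem1 set was 1.51 in WT and 1.39 in KO. The runner-up was the Klk1b8 set, the stage before, in 54.6% of WT and 57.7% of KO members. The Spem1 set led the next set by less than 0.5 score units in 407 members. Barcodes within 0.05 units of the boundary had a median of 13.3 Spem1 UMIs per 10000 just inside and 12.9 just outside in WT, and 12.2 and 10.6 in KO.

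Promoters of 5 genes that the results below turn on are shown from RefSeq (GRCm38.p6), each running from 250 bases before to 50 bases after the transcription start. Spem1 and its neighbour Spem2 lie on the minus strand of chromosome 11 with 2411 bases between them, Tssk6 lies on chromosome 8, and Prm1 and Prm2 are neighbours on the minus strand of chromosome 16. The table held no entry for Car2. Capitals mark TATAA and TGACG, the core of a TATA box and a half-site of the cAMP response element bound by CREM, on either strand.
Spem1, chr11:69822116-69822415, minus strand: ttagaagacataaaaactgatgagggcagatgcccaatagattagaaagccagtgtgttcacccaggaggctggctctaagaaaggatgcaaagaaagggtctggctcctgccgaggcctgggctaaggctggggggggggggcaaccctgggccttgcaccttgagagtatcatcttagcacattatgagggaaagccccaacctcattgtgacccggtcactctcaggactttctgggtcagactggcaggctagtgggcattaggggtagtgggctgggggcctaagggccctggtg
Spem2, chr11:69818414-69818713, minus strand: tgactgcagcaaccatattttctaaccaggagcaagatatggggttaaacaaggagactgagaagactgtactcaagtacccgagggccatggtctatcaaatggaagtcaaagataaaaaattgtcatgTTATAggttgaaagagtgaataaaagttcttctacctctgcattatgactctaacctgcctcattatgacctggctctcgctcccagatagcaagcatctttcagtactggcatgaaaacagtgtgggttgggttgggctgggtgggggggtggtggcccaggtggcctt
Tssk6, chr8:69901934-69902233, plus strand: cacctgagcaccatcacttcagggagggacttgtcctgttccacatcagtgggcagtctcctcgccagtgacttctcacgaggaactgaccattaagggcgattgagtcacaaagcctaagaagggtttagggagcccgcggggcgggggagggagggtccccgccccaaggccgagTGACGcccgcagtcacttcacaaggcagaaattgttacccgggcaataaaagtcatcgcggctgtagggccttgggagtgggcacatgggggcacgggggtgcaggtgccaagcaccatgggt
Prm1, chr16:10796774-10797073, minus strand: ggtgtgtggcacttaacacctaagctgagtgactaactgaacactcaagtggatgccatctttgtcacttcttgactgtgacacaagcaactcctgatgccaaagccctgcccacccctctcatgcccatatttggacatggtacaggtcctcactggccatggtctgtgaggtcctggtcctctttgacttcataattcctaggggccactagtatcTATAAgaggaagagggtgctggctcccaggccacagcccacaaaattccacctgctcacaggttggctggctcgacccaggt
Prm2, chr16:10792056-10792355, minus strand: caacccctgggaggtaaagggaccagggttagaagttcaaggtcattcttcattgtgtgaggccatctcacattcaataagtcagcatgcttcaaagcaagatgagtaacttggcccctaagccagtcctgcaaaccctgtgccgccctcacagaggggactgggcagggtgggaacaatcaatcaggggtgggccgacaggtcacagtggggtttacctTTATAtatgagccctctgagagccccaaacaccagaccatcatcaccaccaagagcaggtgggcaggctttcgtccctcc

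Prm1 held 1 TATAA on the strand shown, and Prm2 and Spem2 each held 1 on the opposite strand. Tssk6 held 1 TGACG, and Spem1 held neither. Of 32851 promoters in the table, 24.9% held TATAA, 20.8% held TGACG and 1.79% held the full TGACGTCA. Of the 35 promoters on record for 29 genes that were higher in the late members described below, 20% held TATAA, 25.7% held TGACG and 0 held TGACGTCA.

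The share of barcodes in the Spem1 stage was lower in the KO library. Members were 652 of 5391 filtered barcodes in WT, or 12.1% (exact binomial interval 11.2 to 13.0), and 213 of 4278 in KO, or 4.98% (4.35 to 5.67). Divided by the WT share, the KO share gave 0.412 (0.351 to 0.481). With z-scores taken within each library in place of both together, the ratio was 0.629. The Klk1b8 stage had a similar ratio of 0.450 (0.386 to 0.523), the Tnp2 stage before it 0.824 (0.727 to 0.933), and the early Piwil1 stage 2.29 (2.01 to 2.62). Among barcodes of the last 3 stages alone, the ratio for the Spem1 stage was 0.734 (0.626 to 0.858).

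The filter bore unequally on the libraries. It set aside 365 barcodes, 6.34%, of the WT library and 2734, 39.0%, of the KO library, and Leydig barcodes, those with UMIs of Insl3, Cyp17a1 and Hsd3b1, numbered 72 and 1045. Among the barcodes set aside, 31 in WT and 85 in KO scored highest for the Spem1 set. They carried less Prm1 than members, with a median of 97.2 UMIs per 10000 in KO against 1096, and more Leydig RNA, with 4.18 UMIs per 10000 against 0. What part these barcodes have in the lower share was not tested. When no filter was applied and every barcode was scored, the ratio was 0.358, and when the filtered members were divided by all barcodes of their library it was 0.268. The filter gene C1qb, which encodes a complement subunit of macrophages, had a UMI in 37.3% of WT and 16.9% of KO members, while its partner C1qa had one in 1 member of each library. In Leydig barcodes, which should lack it, the shares were 5.56% and 2.68%. Its level, 62.5 CPM in WT and 27.3 in KO members, is touched by the filter itself. With C1qb taken out of the filter the ratio was 0.431.

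**Figure D1:**
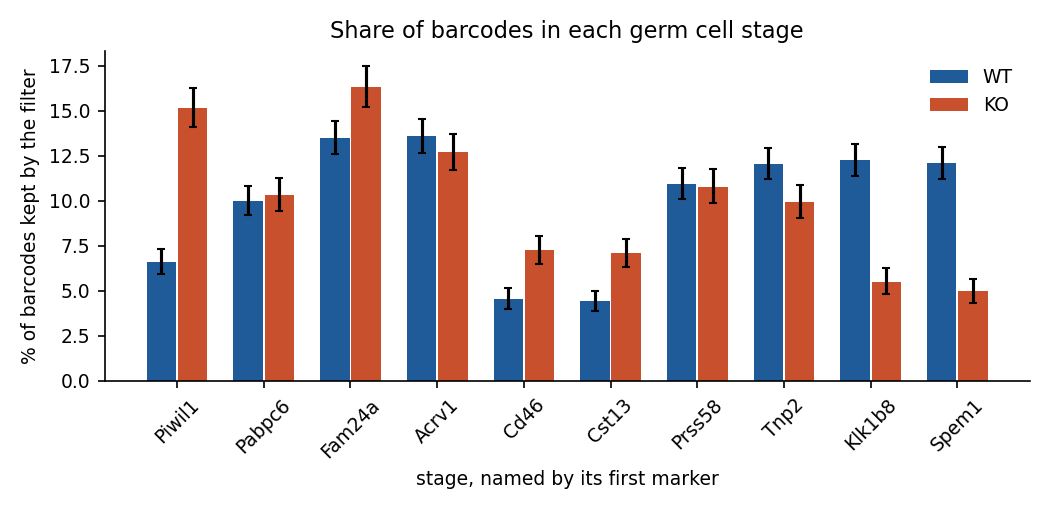
Percent of filtered barcodes in each of the 10 stages, ordered from Piwil1-stage spermatocytes to the latest spermatids, in the WT and KO libraries. Bars are shares and whiskers exact 95% binomial intervals, which cover counting error only. The last pair shows 12.1% in WT and 4.98% in KO.

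The members' RNA was dominated by few messages. Prm1 made up 12.0% of all member UMIs in WT and 10.1% in KO, Prm2 8.28% and 6.99%, and the unnamed transcript CT010467.1 stood between Prm2 and Smcp with 72465 and 68974 CPM. Smcp, whose product is a cysteine-rich protein of the mitochondrial sheath, had 27887 and 21451 CPM, and Dbil5, an acyl-CoA binding protein of spermatids, 13441 and 10280. Below these were Gm5617 (9159 and 7867 CPM), Gsg1 (8047 and 7134) and Tnp2 (7452 and 7842). A UMI counts a captured molecule whatever its length, so these levels were not divided by gene length.

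Between the Klk1b8 stage and the Spem1 stage more messages were lower than higher. Detection in 25% or more of the cells of a stage was asked in each library, which left 1875 genes. Of these, 98 (5.23%) were at least 2-fold lower in the Spem1 stage in both libraries and 3 (0.16%) were at least 2-fold higher. The median log2 ratio over these genes was -0.13 in WT and -0.03 in KO. The 3 higher genes were the selecting gene Tssk6, with 580 and 1320 CPM in WT and 474 and 1002 in KO, Bri3bp, with 140 and 287 in WT and 150.2 and 300.9 in KO, and Otud3, a deubiquitinase, with 23.7 and 49.1 in WT and 26.1 and 62.6 in KO. In each of these genes the Spem1 stage was the higher of the pair in both libraries.

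The lower genes were led by Tmem269, itself a gene of the Klk1b8 set, which went from 219 to 47.7 CPM in WT and from 201 to 49.3 in KO. The X-linked histone variant gene H2al1m had log2 ratios of -1.77 and -1.59, and Sqor, the sulfide oxidase of mitochondria, -1.89 and -1.58. Tmco2 (-1.56 and -1.54), Hsph1, a chaperone (-1.44 and -1.66), Eloc, a subunit of ubiquitin ligases (-1.52 and -1.45), and Akap3, an anchoring protein of the fibrous sheath (-1.36 and -1.38), were also at least 2-fold lower in both libraries. Of the 98 lower genes, 12 were X-linked, among 58 X-linked genes compared. The transition protein gene Tnp2, Tex37 and Gm136, also among the 98, were used by the rule that chose the stages.

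The gene lists are read against the shares over all genes compared, 5.23% lower and 0.16% higher. Of 18 outer dense fibre and fibrous sheath genes compared, 0 were 2-fold higher and 2 (11.1%) lower, with a median log2 ratio of 0.48 in WT and 0.37 in KO. The glycolytic genes of the sperm tail had 0 of 13 past the fold in either direction and medians of 0.61 and 0.42. Of 17 nuclear condensation genes 6 (35.3%) were 2-fold lower and 1, the selecting gene Tssk6, higher, with medians of -0.63 and -0.48, and 5 of 20 (25%) genes of the head, theca and neck were lower and 0 higher, with medians of -0.67 and -0.38. The 57 ribosomal protein genes compared had 0 past the fold, with medians of -0.30 and -0.03.

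**Figure D2:**
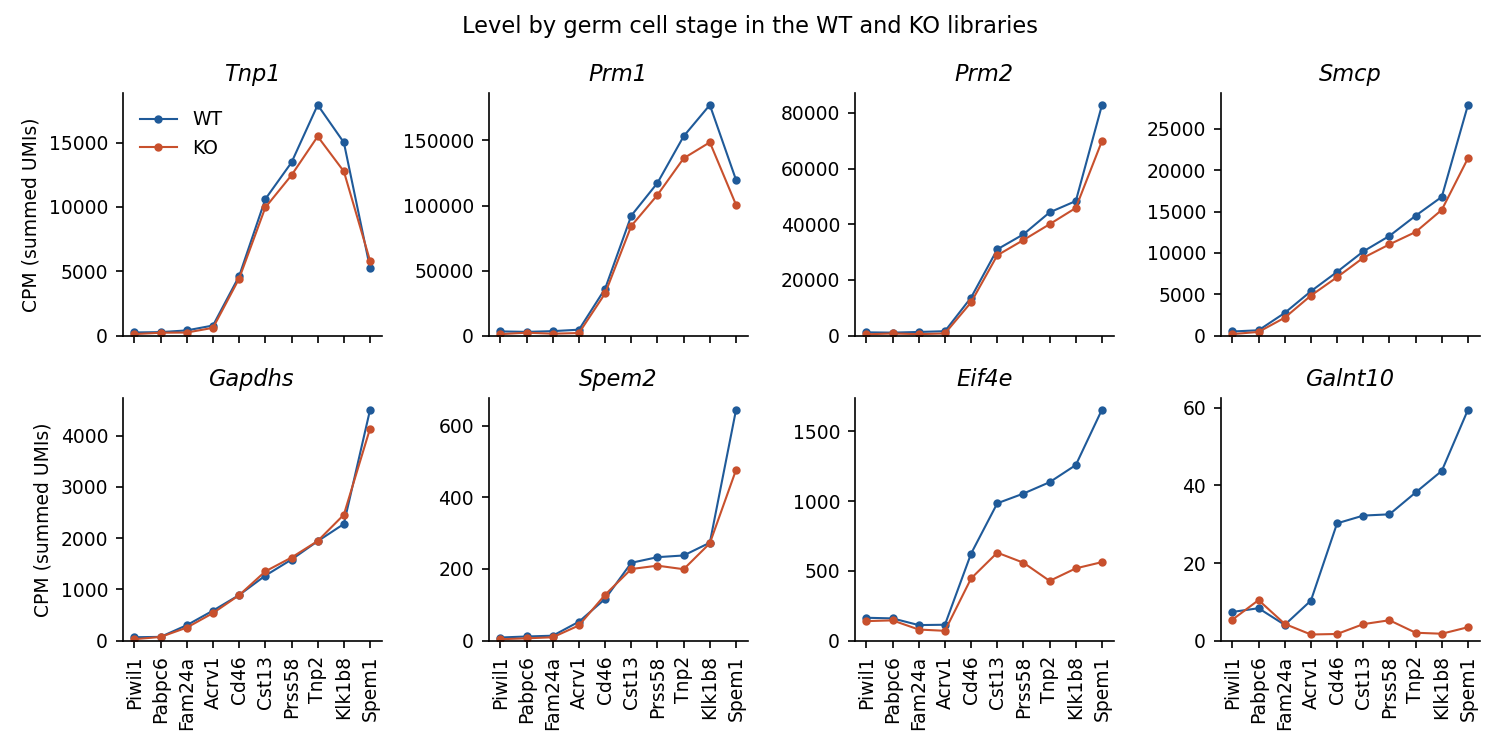
CPM of 8 genes in the summed UMIs of each stage, from the Piwil1 stage to the Spem1 stage, in the WT and KO libraries (linear axes starting at 0, 1 point per stage and library). Tnp1 and Prm1 peak before the last stage, Prm2, Smcp, Gapdhs and Spem2 are highest in it, and Eif4e and Galnt10 separate the 2 libraries.

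Members were not uniform. They were divided into early, middle and late members by the Spem1 score minus the Klk1b8 score, at 0.475 and 1.19 score units, so that each class held about as many of the 865. This gave 204, 204 and 244 WT members and 84, 84 and 45 KO members. Late members were thus 37.4% (33.7 to 41.3) of WT and 21.1% (15.8 to 27.2) of KO members. Of 1859 genes detected in 25% or more of the WT or of the KO members, 373 (20.1%) were at least 2-fold lower in late than in early members in both libraries, and 35 (1.88%) were at least 2-fold higher. Spem1, Car2 and Tssk6 are part of the score, and so is the Klk1b8 set, whose 3 genes Tmem269, Paqr5 and Klk1b8 are among the 373 lower genes by construction. Tnp2, Tex37, Cstl1 and Gm136, also among the lower genes, belong to earlier sets of the rule. Their values helped to choose the members, so their fall is a description only.

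Messages for the transition proteins were among the lower genes. Tnp1, which encodes transition protein 1, had 9276 CPM in early, 7080 in middle and 305 in late WT members, and 6626, 7466 and 470 in KO. Its log2 ratio of late to early members was -4.92 in WT and -3.82 in KO, the most negative of all genes compared when the library nearer to 0 is taken. Tnp2, for transition protein 2, had 12764, 10029 and 754 CPM in WT and 8316, 10300 and 1574 in KO, with log2 ratios of -4.08 and -2.40. The rule used Tnp2 but not Tnp1. The median WT member had 3.36 Tnp1 UMIs per 10000, and the upper quartile was 84.2. A UMI of Tnp1 was found in 76.2% of WT and 81.7% of KO members, against 59.7% and 37.1% of Leydig barcodes, so low counts of it cannot be told from background.

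The protamine messages moved in opposite directions. Prm1 went from 182380 CPM in early to 43983 in late members in WT and from 129850 to 18770 in KO, log2 ratios of -2.05 and -2.79. Prm2, its neighbour on chromosome 16, went from 57305 to 119960 in WT and from 56999 to 120560 in KO, log2 ratios of 1.07 and 1.08. The number of Prm2 UMIs per Prm1 UMI was 0.314 in early, 0.439 in middle and 2.73 in late members in WT, and 0.439, 0.567 and 6.42 in KO. In the Klk1b8 stage it was 0.273 and 0.309, the lowest of the 10 stages in WT, and in the Tnp2 stage 0.289 and 0.294. Prm2 exceeded Prm1 in 35.9% (32.2 to 39.7) of WT members and 40.4% (33.7 to 47.3) of KO members. From early to late this was 3.43%, 11.3% and 83.6% of WT and 17.9%, 34.5% and 93.3% of KO members. Prm3, also at this locus, did not follow Prm2: its log2 ratios were -0.45 and -1.12.

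Members with under 300 Prm1 UMIs per 10000, a limit set after the values were seen, were 107 of 652 in WT, 16.4% (13.7 to 19.5), and 70 of 213 in KO, 32.9% (26.6 to 39.6). In WT 103 of them were late members, whereas in KO 9 were early, 20 middle and 41 late. The limit cuts a continuous range, with 64 WT and 23 KO members between 200 and 400. In the Klk1b8 stage 0.15% of WT and 2.97% of KO cells were below it. Low-Prm1 members had a median of 7382 UMIs in WT and 6500 in KO, and 1 of the 107 and 6 of the 70 were called doublets, of 21 and 10 among all members.

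Among them were 13 WT members, and among KO members 0 of 213 (an upper limit of 1.72% by the exact binomial interval), with under 100 Prm2 UMIs per 10000, also a limit set after the values were seen. The order of the libraries was the reverse in the stages before. Below this limit were 0.15% of WT and 1.7% of KO cells in the Klk1b8 stage, and 0.15% and 1.18% in the Tnp2 stage. The median Prm1 of the 13 WT members was 9.34 and Prm2 20.2 UMIs per 10000, against 1224 and 648.8 in the other WT members. Smcp was 1249 in these barcodes and 241.1 in the others, Oaz3, the antizyme of spermatids, 302.0 and 44.2, Dbil5 529 and 113, whereas Gapdhs was 1.94 and 37.6, and Tssk6 30.1 and 10.5. Spem1 itself had a median of 0 and Car2 4.33, against 20.1 and 13.9, so of the selecting genes Tssk6 alone was high in them. They had a median of 5980 UMIs and 793 genes, and 0 were called doublets.

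Genes that were higher in late members included several of glycolysis. Spem2 went from 349 to 1082 CPM in WT and from 349 to 993 in KO, log2 ratios of 1.63 and 1.51, though it was not part of the score. Gapdhs, the glyceraldehyde-3-phosphate dehydrogenase bound to the fibrous sheath, went from 2927 to 6697 and from 3190 to 7740, and the glycolytic genes Aldoa (1.10 and 1.11) and Tpi1 (1.04 and 1.19) behaved alike. Azin2, an antizyme inhibitor, had 1.13 and 1.28, and the small heat shock gene Hspb9 1.16 and 1.04. Rpl41 was the only ribosomal protein gene past the fold upward (1.21 and 1.09), while 23 others were past it downward, Rplp0 with -3.21 and -2.86 among them. The median of the 59 ribosomal protein genes was -1.05 in both libraries, and over all 1859 genes it was -0.16 and -0.15.

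Other genes were lower in late members. Dynll2, a dynein light chain, had 4610 UMIs in early and 474 in late members in WT, and 1875 and 64 in KO. Tex37, a gene of the rule, had log2 ratios of -3.89 and -3.52. Those of Odf3b were -3.52 and -3.32, of the perinuclear theca gene Actrt2 -3.33 and -3.01, and of Hmgb4, a chromatin protein of spermatids, -3.43 and -2.69. Over all genes 20.1% were lower and 1.88% higher. Of 20 genes of the head, theca and neck compared, 9 (45%) were 2-fold lower and 0 higher. Of 12 glycolytic genes, 3 (25%) were higher and 0 lower, and of 17 flagellum sheath genes 1 was higher and 3 (17.6%) lower, the latter near the share over all genes.

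**Figure D3:**
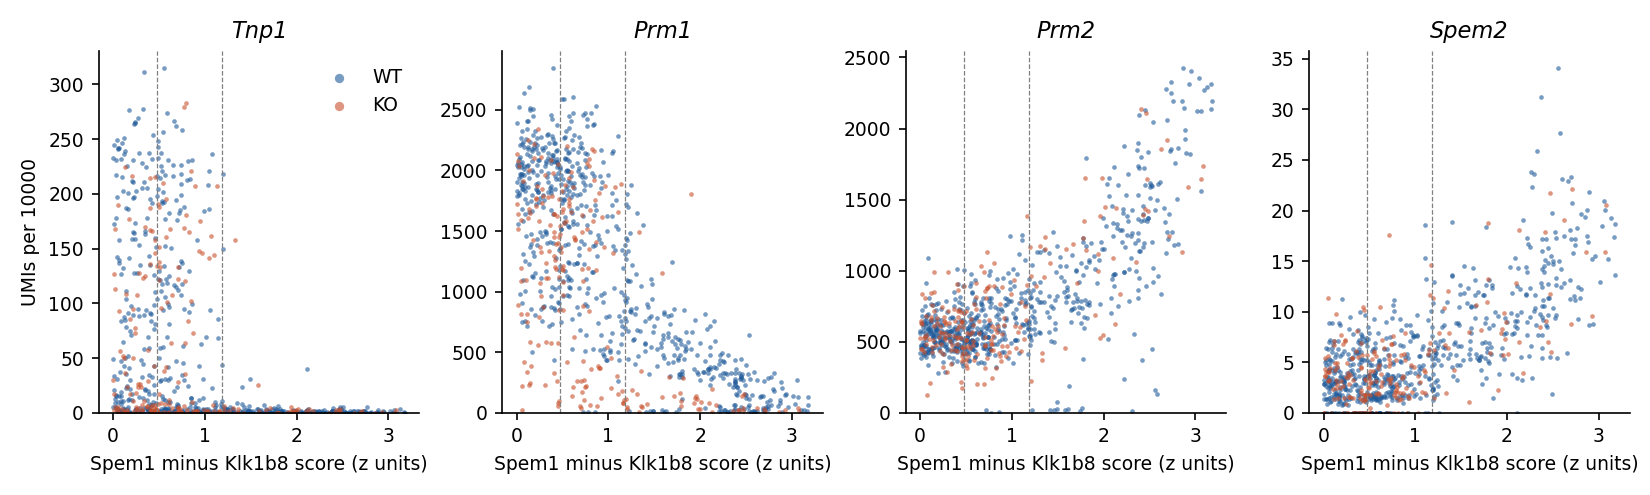
UMIs per 10000 of Tnp1, Prm1, Prm2 and Spem2 in each of the 865 members (1 point per barcode) against the Spem1 score minus the Klk1b8 score in z units, with dashed lines at the 2 limits between early, middle and late members. Tnp1 and Prm1 fall to the right, Prm2 and Spem2 rise, and the points near 0 for Prm2 are WT barcodes.

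More genes were higher than lower in the KO members. Of the 1859 genes, 152 (8.18%) were at least 2-fold higher in KO members and 24 (1.29%) at least 2-fold lower, and the median log2 ratio of KO to WT was 0.12. Of these, 84 of the higher genes met the 25% criterion in KO members only and 19 of the lower genes in WT members only, so those had to differ. With the criterion applied to the mean of both libraries, chosen after seeing the data, 114 of 1686 genes (6.76%) were higher and 12 (0.71%) lower. Because fewer KO members were late, the 3 classes were also given equal weight, which left 122 genes higher and 24 lower, 118 and 21 of them shared with the first comparison. Of the genes past the fold here, 147 of the higher and 21 of the lower also met the 25% criterion in the Klk1b8 stage. There 67 and 12 were past the fold too, 44.1% of the 152 and 50% of the 24. These shared genes were 58.8% of the 114 higher and 50% of the 24 lower genes of that stage. Among genes compared in that stage, 2.93% of 2017 autosomal and 60.3% of 78 X-linked genes were higher, and 23 and 0 were lower. The mean level of RNA per cell cannot be read from CPM.

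Over all members, the protamine and transition protein genes differed by less than 2-fold. Prm1 had 119770 CPM in WT and 100610 in KO, a log2 ratio of -0.25 (-0.26 to -0.24), Prm2 82797 and 69891 (-0.24), Tnp1 5263 and 5822 (0.15), and Tnp2 7452 and 7842 (0.07). With equal weight to the classes, Prm2 had a log2 ratio of -0.02 and Prm1 -0.55. Prm3 was at 4526 and 3129 CPM (-0.53), with ratios of -0.49, -0.60 and -1.16 in early, middle and late members. Of 15 nuclear condensation genes that met the 25% criterion, 3 (20%, beside 8.18% over all genes) were 2-fold higher in KO and 0 lower. These were the X-linked histone variant H2al3 (59.5 and 277 CPM, log2 ratio 2.22), H3f3b, a gene for the replacement histone H3.3 (57.5 and 162, 1.50), and Chd5, a remodeler needed for the histone to protamine exchange (18.4 and 47.0, 1.35). At its WT level Chd5 could meet the criterion in KO members only, which favours a higher KO value. H2al3 is one of the X-linked genes, of which 71.2% were 2-fold higher, so the 20% is no result about condensation genes. The median of the 20 genes with at least 10 UMIs was 0.16, against 0.41 over all 10149 genes with as many.

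Structural genes of the tail were near parity. Of 17 flagellum sheath genes 0 were past the fold in either direction, with a median log2 ratio of 0.05 over 20 genes. Akap4, the main anchoring protein of the fibrous sheath, had 4950 CPM in WT and 5495 in KO, Odf1, an outer dense fibre protein, 637 and 810.0, and Odf2 4823 and 4580. Oaz3 had 5340 and 3405 CPM and a log2 ratio of -0.65 (-0.69 to -0.61), and its ratio was -0.25, -0.47 and -0.55 from early to late. Of 11 mitochondrial sheath genes, 7 axonemal genes, 12 glycolytic genes, 7 kinase and scaffold genes, 6 acrosomal genes and 7 ion channel and signalling genes, 0 passed the fold in either direction. Of 18 genes of cytoplasm removal and ubiquitin transfer, 1 passed it: the chaperone gene Hspa1l, with 131 and 267 CPM, which was at 0.71 on the log2 scale with equal weight to the classes.

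Genes of message storage and translation lay on both sides. Eif4e, which encodes the protein that binds the cap of messages to start translation, had 10245 UMIs in WT members, 971 in KO members, 1656 and 563 CPM, a log2 ratio of -1.56 (-1.65 to -1.46). The median WT member had 16.0 Eif4e UMIs per 10000, with a range of 0 to 36.7, and the median KO member 5.40, with a range of 0 to 18.6. The ranges overlapped, but the upper quartile of KO, 7.59, was below the lower quartile of WT, 11.7. The ratio was -1.44, -1.48 and -1.53 from early to late. It lay between -0.13 and -0.92 in the first 7 stages, at -1.41 in the Tnp2 stage and at -1.28 in the Klk1b8 stage.

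Ybx1, which encodes a cold shock protein that binds stored messages, was the reverse, with 267 UMIs in WT and 461 in KO, a log2 ratio of 2.63 (2.41 to 2.85). Its ratio was 0.58 in the Prss58 stage, 2.91 in the Tnp2 stage and 2.67 in the Klk1b8 stage, and between -0.40 and 0.02 in the 6 stages before those. Papolb, the cytoplasmic poly(A) polymerase of spermatids, had 243 and 346 UMIs (2.35, 2.11 to 2.60), with ratios of 0.37, 1.01 and 2.35 in the last 3 stages. It had a UMI in 19.9% of WT and 59.6% of KO members, or 15.3% and 51.4% when members were thinned to 5477 UMIs each, against 8.33% and 11% of Leydig barcodes. Of 12 genes of this list that met the criterion, 2 (16.7%) were higher in KO and 1 (8.33%), Eif4e, was lower, beside 8.18% and 1.29% over all genes. The 2 higher genes, Papolb and Ybx1 (in 19.2% of WT and 39.0% of KO members), met the criterion in KO members only. The criterion thus favoured a higher KO value for both. Ybx2, Pabpc1 and Paip2 had ratios between -0.05 and 0.24. The median of 30 genes was 0.93 but rested on weakly detected genes: over the 20 with at least 50 UMIs it was 0.34. Of the 21 genes of the N6-methyladenosine machinery, 1 met the 25% criterion, the reader Igf2bp3, with 247 and 197 CPM. Of the 15 with at least 10 UMIs, 12 had a higher value in KO, beside 7002 of 10149 over all genes with as many UMIs. The median log2 ratio of the 15 was 1.58, beside 0.41 over all such genes, and the 21 genes summed to 306.5 CPM in WT and 361.8 in KO. Igf2bp3, lower in KO, held most of both sums, so this median too rested on weakly detected genes. In the rest of the libraries the 21 genes summed to 523 CPM in WT and 810 in KO.

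Among genes that met the criterion and had at least 100 UMIs, the lowest ratio was that of Galnt10, a glycosyltransferase gene, with 368 UMIs in WT members and 6 in KO members, 59.5 and 3.48 CPM, a log2 ratio of -4.10 (-5.55 to -2.96). It had a UMI in 40.5% of WT and 2.82% of KO members, or 26.2% and 2.29% of thinned members. The KO share lay below the 3.44% of KO Leydig barcodes. Galnt10 lies at chr11:57645442-57787514 (GRCm38), and its end is 2748867 bases from the start of Alkbh5 at chr11:60536381-60558512. The log2 ratio was between -0.45 and 0.32 in the first 3 stages, -2.69 in the Acrv1 stage and between -4.60 and -2.63 from there on.

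The other low genes came from several chromosomes. The uncharacterized gene 1700063D05Rik on chromosome 9 had 774 UMIs in WT and 36 in KO (-2.58), Fxyd2, which modulates the sodium pump, 699 and 45 (-2.11), and Chpt1, a choline phosphotransferase gene, 945 and 71 (-1.89). Rpl39l, the testis paralogue of Rpl39, had 2103 and 194 (-1.60), with reads that near-identical copies may share. Gm10638 (-1.72), Tes3-ps (-1.56), Znrf1 (-1.52) and Gm41177 (-1.52) completed the 10 with the lowest ratios. 1700063D05Rik was at -2.58 or lower in all 10 stages, down to -4.37 in the Klk1b8 stage. Each of these 10 genes had a negative ratio in early, middle and late members. These classes are parts of the members whose summed ratio chose the genes, so their signs are no separate check. All 24 genes past the fold were also lower in KO in the Klk1b8 stage, which holds other barcodes of the same libraries. Of the 24, 19 met the detection criterion in WT members only, which favours a lower KO value in members.

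**Figure D4:**
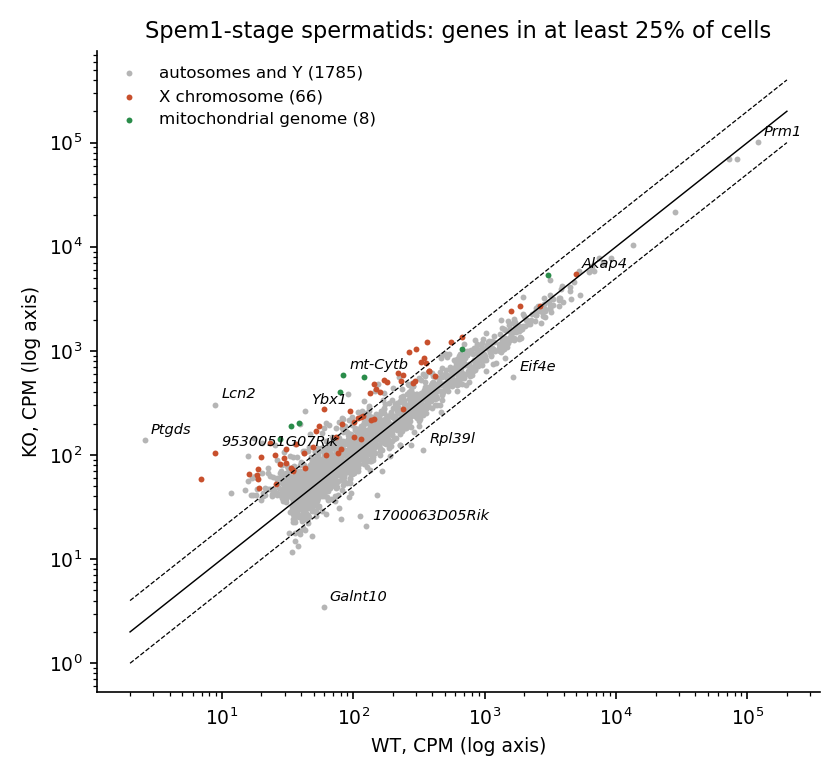
CPM of the 1859 genes in KO against WT members (both axes logarithmic, 1 point per gene, colours for the chromosome group, solid line at equality and dashed lines at 2-fold). All 66 X-linked genes lie above the line of equality (H2afb1 falls below it with equal weight to early, middle and late members), and Galnt10 stands lowest against WT.

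X-linked genes were higher in KO as a group. Of 66 X-linked genes that met the criterion, 47 (71.2%) were at least 2-fold higher in KO members and 0 were lower, beside 5.48% of 1753 autosomal genes higher. Their median log2 ratio was 1.27, from 0.02 for H2afb1 to 3.57 for 9530051G07Rik, and the median of autosomal genes was 0.10. Of the 47, 18 met the criterion in KO members only. With the criterion on the mean of both libraries, 41 of 60 X-linked genes (68.3%) and 67 of 1590 autosomal genes (4.21%) were higher, with medians of 1.21 and 0.10. With equal weight to early, middle and late members, 40 were at least 2-fold higher and 1, H2afb1, was lower, at -0.20. The medians of the 19 autosomes, taken 1 at a time, lay between -0.06 and 0.16. X-linked genes made up 30.9% of all genes that were higher in KO. Summed over the chromosome, X-linked UMIs were 2.09% of all UMIs in WT members and 3.70% in KO members, a ratio of 1.77 (1.75 to 1.79). Per barcode the share was 0.15 to 3.63% with a median of 2.14% in WT, and 1.46 to 6.69% with a median of 3.59% in KO. The ranges overlapped, the interquartile ranges of 1.91 to 2.36% and 3.25 to 4.02% did not, and 96.7% of KO members lay above the WT median.

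The X-linked genes included known spermatid genes. The cysteine-rich perinuclear theca genes Cypt1 (143 and 482 CPM, log2 ratio 1.76), Cypt2 (23.4 and 132, 2.49) and Cypt3 (218 and 619, 1.50) were each at least 2-fold higher in KO, as were Cylc1, a cylicin of the theca (51.7 and 169, 1.71), and the histone variants H2al3 and H2al1n (133 and 393, 1.56). Their autosomal relatives Cypt4, Cypt12 and Cylc2 had ratios of 0.44, 0.50 and 0.39. Akap4, an abundant X-linked message, was at 0.15 (0.12 to 0.18), and H2afb1 at 0.02 (-0.03 to 0.07). 9530051G07Rik went from 55 UMIs in WT to 182 in KO members and Gm15091 from 43 to 102. H2al1n is 1 of several near-identical copies, among which the counting could have divided reads.

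The X-linked difference was not particular to the last stage. The median log2 ratio was 0.64 in the Pabpc6 stage, 0.62 in the Fam24a stage, 0.84 in the Acrv1 stage and between 1.03 and 1.27 in the 6 stages from Cd46 on, whereas autosomal medians stayed between -0.08 and 0.10 in the 10 stages. The Piwil1 stage had the highest median, 2.25 over 42 genes, where barcodes of the stage had a median of 15725 UMIs in WT and 7710 in KO. In members the median was 1.10, 1.24 and 1.15 in early, middle and late members, beside 0.06, 0.08 and 0.07 for autosomal genes. Without the members that had any UMI of the 10 Leydig markers, which left 605 WT and 121 KO members, 45 of 66 X-linked genes were at least 2-fold higher.

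**Figure D5:**
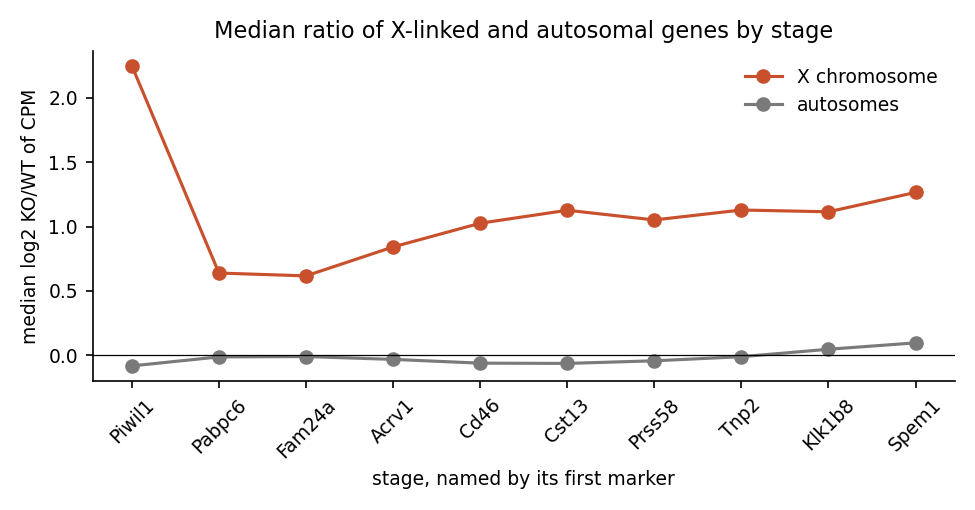
Median log2 ratio of KO to WT CPM over X-linked and over autosomal genes detected in 25% or more of a stage's cells, for each of the 10 stages. From the Cd46 stage on the X-linked median lies above 1, while the autosomal median stays near 0.

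Protein-coding genes of the mitochondrial genome were higher in KO members as well. All 8 of these with at least 10 UMIs had log2 ratios between 2.12 (mt-Nd3) and 2.81 (mt-Cytb), with a median of 2.39, and 4 of the 12 listed were at 0 in both libraries. The ribosomal RNAs mt-Rnr1 (675 and 1044 CPM, log2 ratio 0.63) and mt-Rnr2 (3021 and 5396, 0.84) held most mitochondrial UMIs and did not reach 2-fold, and summed over the mitochondrial genome the ratio was 2.11. mt-Cytb went from 521 UMIs in WT to 1017 in KO members and mt-Co1 from 744 to 969. The difference was not particular to the last stage. Over mitochondrial genes that met the detection criterion, ribosomal RNAs included, the median log2 ratio was 2.36 in members and 2.39 in the Klk1b8 stage. From the Cd46 to the Tnp2 stage it lay between 1.56 and 2.17, and in the Acrv1 stage at 1.03. In the Piwil1, Pabpc6 and Fam24a stages it was 0.76, 0.29 and -0.21. In the rest of the library the protein-coding messages summed to 3959 CPM in WT and 17907 in KO. Members were at 10.1% of this level in WT and 12.2% in KO. For the Leydig markers this percentage was 1.57 in WT and 5.02 in KO. Without members that had Leydig UMIs the median log2 ratio of the 8 protein-coding genes was 1.46. The part of RNA from other cells in the difference between KO and WT members was not tested.

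Ribosomal protein genes were 2-fold higher for 10 (16.9%) and lower for 1 (1.69%) of 59, beside 8.18% and 1.29% over all genes, with a median log2 ratio of 0.67 over 82 genes against 0.41 over all genes with as many UMIs. The detection criterion that gave the 59 genes could be met in KO members alone, which favours a higher KO value. Among the 59, Rps27a had the highest ratio, with 109 and 252 UMIs (3.05), and 12.3% of its KO UMIs lay in 1 barcode. Ptgds (16 and 240 UMIs, 5.75) and Lcn2 (55 and 525, 5.10), a prostaglandin synthase and a lipocalin, had the highest ratios, with 55.8% and 82.7% of their KO UMIs in 1 barcode each. Nmnat3, an NAD synthase gene of mitochondria, had 125 and 226 UMIs (2.70) and Mrgprb8 98 and 168 (2.62), with 3.10% and 3.57% in the highest barcode, and both were at 1.40 or higher in all 10 stages. With so few UMIs over 652 WT members, Rps27a, Ptgds, Lcn2, Nmnat3 and Mrgprb8 could meet the detection criterion in KO members only. Their place among the highest ratios was thus favoured by the criterion. Without Leydig-positive members the ratio of Lcn2 was 2.29, of Rps27a 2.29, of Ybx1 2.70, of Papolb 2.52, of Nmnat3 2.81, of Eif4e -1.46 and of Galnt10 -4.92. Ptgds is itself 1 of the 10 Leydig markers, so it has no value there.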

How the data were processed

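The deposited files hold whole-number UMI counts per gene and barcode, 1 table per library. The submitters' processing notes list STAR (2.5.3a) for alignment and featureCounts (1.6.2) for assignment. The study's methods name a human build, but the symbols are mouse; positions are from GENCODE vM21 and RefSeq (GRCm38). The shallowest barcode had 5142 UMIs in WT and 4792 in KO. Counts were summed per library and stage and divided by their total (CPM). With 1 library per genotype no test was run. Intervals are 95% exact conditional (ratios) and Clopper-Pearson (shares). A sum of 0 was set to 3 counts for a ratio. Named genes were those of the 10 sets, the filter and the lists, Alkbh5, the 10 highest and 10 lowest KO to WT ratios among genes with at least 100 UMIs, and the 15 leading genes each way between stages. Other genes (abundant, late against early, X-linked) were chosen after their values were seen. Doublets were called with Scrublet (scanpy 1.11.5) and kept. Members and lists were chosen with earlier results of these data known. The comparison was tested on simulated data.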

Additional observations from a re-analysis of the deposited data

How the results depend on the processing

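Of 61 alternatives, 43 stayed within the range set for their result, 18 moved out of it and 0 turned its direction. The ratio of shares was 0.308 with a margin of at least 0.5, 0.483 without Spem1 in the set, 0.629 with z-scores within each library, 0.268 with filtered members divided by all barcodes and 0.734 within the last 3 stages. Genes higher and lower in KO were 518 and 71 at 10% detection, 373 and 91 at 1.5-fold, and 15 were lower after thinning to 5477 UMIs and 12 with 25% detection as the mean of both libraries. Against the Klk1b8 stage, 188 genes were lower at 10% detection, 123 higher and 309 lower at 1.5-fold, and 37 higher and 252 lower with margins of at least 0.5. Without members holding Leydig UMIs, the median log2 ratio was 1.46 for mitochondrially encoded and 1.32 for X-linked genes, against 2.39 and 1.54 over genes with at least 10 UMIs. A wider filter or lower fold admits more genes by construction, and a margin removes cells near the boundary; the cause of the other shifts was not tested. The alternatives with no filter, without C1qb, without shared barcodes, within the last 3 stages, with mean detection, without Leydig-positive members and without X-linked genes, and those for the X chromosome, were chosen after seeing the data. No library could be left out, since there was 1 per genotype. Depth limits genes under about 25% detection.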
